A study of Saccharomyces cerevisiae with 6 samples.

Results

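The B-type cyclin and mitotic regulator genes described here are the 6 B-type cyclin genes CLB1 to CLB6 of budding yeast with SWI5, CDC5 and CDC20. These 9 genes were found by name in the gene symbol column of the authors' deposited fold change table, and each was read by 1 probe set that names no other gene. They are 9 of 5420 genes with a probe set of their own on the array. The 6 samples came from Saccharomyces cerevisiae strain DBY746, labelled wild-type, in 2 groups of 3 biological replicates. The Myriocin group was grown with 300 ng/ml myriocin in 0.3% ethanol, and the No-myriocin group with 0.3% ethanol alone, both at 30 °C in SDC medium of pH 6 to an A600 of 2. Myriocin, a fungal metabolite, blocks serine palmitoyltransferase and with it the first step in making sphingolipids. RNA of each sample was measured on a single-colour array as 1 normalised log2 signal per probe set, so that a difference of 1 is a 2-fold difference. Both groups are of a single strain, neither is labelled as synchronised, and the time that each culture took to reach its density is not given in the sources used here.

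B-type cyclins bind the kinase Cdc28 and direct it in turn to DNA replication, spindle assembly and mitosis. In budding yeast Clb5 and Clb6 act in S phase, Clb3 and Clb4 from late S phase into spindle assembly, and Clb1 and Clb2 in mitosis. Transcription of the mitotic set, CLB1, CLB2, SWI5, CDC5 and CDC20 among it, peaks in G2 and M under Mcm1, the forkhead factors and Ndd1. Cdc20 then activates the anaphase-promoting complex, which marks securin and B-type cyclins for destruction, and Swi5 turns on genes of the next G1. The genes form paralog pairs, CLB1 with CLB2, CLB3 with CLB4 and CLB5 with CLB6. In the RefSeq annotation of assembly R64, CLB1 and CLB6 are neighbours on chromosome VII and CLB2 and CLB5 are neighbours on chromosome XVI, so each mitotic cyclin gene of the first pair lies beside an S-phase one. CLB3 lies on chromosome IV and CLB4 on chromosome XII.

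On each array between 95.4% and 95.7% of genes lay above 2.07, the highest log2 signal of 50 negative-control probe sets, and array medians were 11.06 to 11.08. Precision is limited by the number of arrays, and log2 fold changes had a standard error (SE) of 0.11 in the median gene. With limma's moderated test and a Benjamini-Hochberg adjusted p under 0.05 over all 5420 genes, 1384 genes were called higher with myriocin and 1562 lower, together 54.4%. All 26 hybridisation controls, foreign transcripts added to each sample, were lower with myriocin (median -0.25 in log2), and the 9 with signals from 6 to 11, the range of most genes described here, had a median of -0.46. With arrays scaled to these controls every log2 fold change moved up by 0.315, and 2164 genes were called higher and 651 lower. A decrease or increase below therefore stands relative to other genes. Values under that scaling show what a single shift of 0.315 does to each result, and are given where they change a call or a direction. The 9 controls of like signal ranged from -0.96 to -0.24, and their median of -0.46 is larger in size than that shift. Scaling to these 9 alone was not run, so the scaled values may understate the part of the scale. Of 17 ribosomal RNA probe sets 16 were lower (median -1.61), and of 8 control genes with probe sets at both ends 3 had a larger difference between the 3′ and the 5′ end with myriocin. For 4 of these 8 the groups did not overlap. That difference changed by 1.12 for SRB4, and by -0.1, -0.24 and -0.27 for ACT1, EAF5 and SPT15. The part of these in the results was not tested. The transcripts of alpha cells were strong, SAG1 and STE3 averaging 14.37 and 14.25 with myriocin and 14.94 and 14.64 without, while MFA1 and MFA2 of a cells lay under 2.07 in every array. Of the other a cell genes listed, STE6 lay well above that level, averaging 7.14 with myriocin and 6.82 without. BAR1, STE2 and AGA2 had group averages from 1.89 to 2.51.

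Of the 9 genes, 2 fell with myriocin, the cyclin genes CLB4 and CLB2, and none rose. Lower calls made up 28.8% of all genes tested, so the count of 2 in 9 is close to the background. The 9 genes had a median log2 fold change of -0.09, beside -0.03 for all genes. In the authors' deposited table CLB4 has a signed fold of -1.91 (p = 0.0402) and CLB2 one of -1.36 (p = 0.038), and these are the only 2 of the 9 genes under 0.05 there. Of probe sets other than controls, 57.3% pass that threshold in the authors' deposited table. CLB1 and CDC20 had log2 fold changes of -0.62 and -0.56, larger in size than that of CLB2, and missed the adjusted threshold. Before adjustment 4 genes had a p under 0.05, all lower, where 32.1% of all genes were lower at that threshold. The S-phase cyclin genes CLB5 and CLB6, the cyclin gene CLB3, SWI5 and CDC5 had log2 fold changes between -0.09 and 0.13. The groups did not overlap for 3 genes, CLB1, CLB2 and CLB4, all lower with myriocin, where 35.8% of all genes were lower without overlap and 66.4% did not overlap in either direction. In cultures of mixed phases, fewer mitotic cells and less RNA per mitotic cell cannot be told apart.

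**Figure D1:**
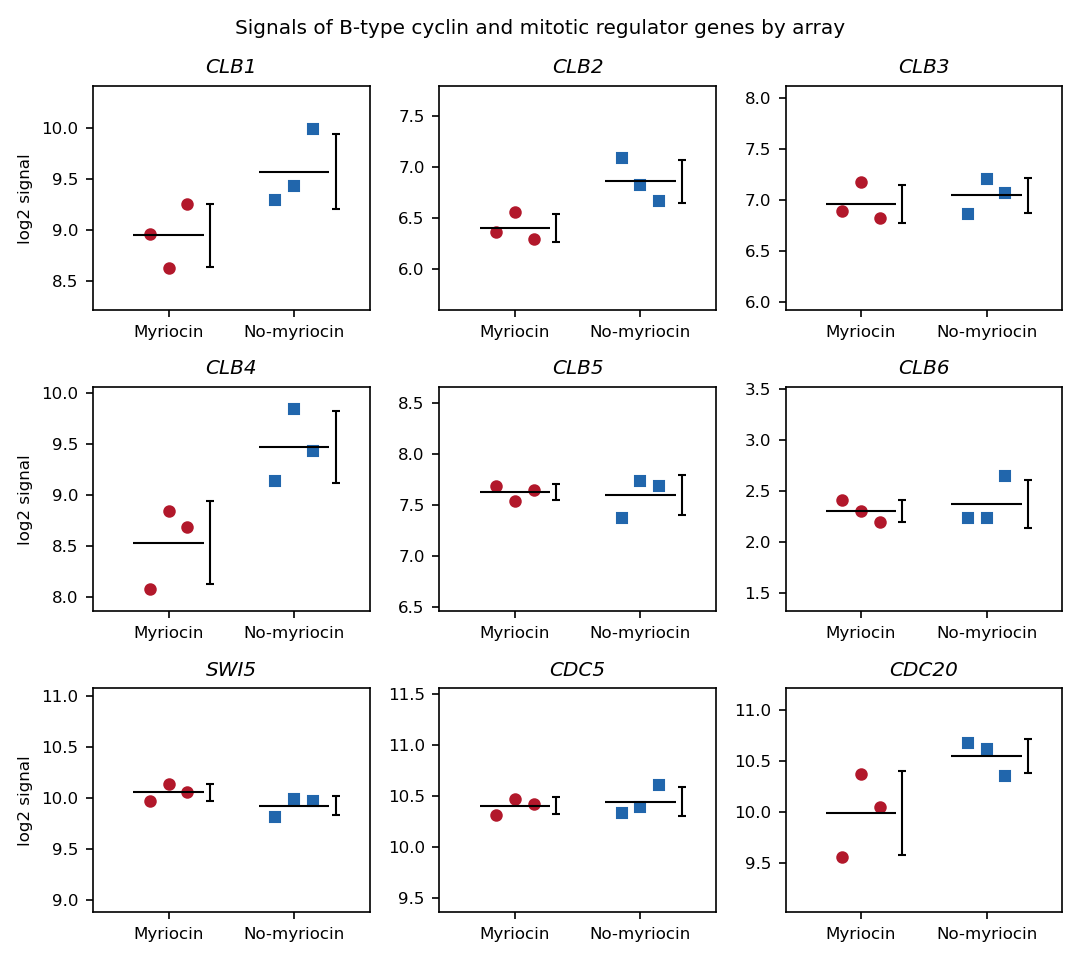
Log2 signal of each gene on each array (circles, Myriocin; squares, No-myriocin), with the group mean as a line and the SD as a bar beside it (n = 3 per group). Each panel spans the same number of log2 units. The Myriocin points lie under all No-myriocin points for CLB1, CLB2 and CLB4 and overlap them for the other genes.

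CLB2 encodes the main mitotic cyclin. Its log2 signal was 6.36, 6.56 and 6.30 in Myriocin replicates 1 to 3, against 7.09, 6.82 and 6.67 in No-myriocin replicates 1 to 3. All Myriocin arrays lay under all No-myriocin arrays, and the nearest values were 6.56 in Myriocin replicate 2 and 6.67 in No-myriocin replicate 3. CLB2 averaged 6.41 ± 0.138 with myriocin and 6.86 ± 0.214 without (SD, n = 3 each). The change was -0.45 in log2 (SE 0.13, 95% interval -0.77 to -0.13, limma adjusted p = 0.0288), a signal 26.7% lower on the linear scale. The call rested on several single arrays. Without Myriocin replicate 1 the limma adjusted p was 0.079, without Myriocin replicate 3 it was 0.0879, and without No-myriocin replicate 1 or 2 it was 0.0631 or 0.0693. With arrays scaled to the hybridisation controls the log2 fold change of CLB2 was -0.13 (limma adjusted p = 0.475).

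CLB1 encodes the closest relative of Clb2, a mitotic cyclin with an overlapping role. Log2 signals were 8.96, 8.63 and 9.25 in Myriocin replicates 1 to 3, against 9.29, 9.43 and 9.99 in No-myriocin replicates 1 to 3. The groups did not overlap, though 9.25 in Myriocin replicate 3 and 9.29 in No-myriocin replicate 1 lay next to each other, and No-myriocin replicate 3 stood highest. CLB1 averaged 8.95 ± 0.308 with myriocin and 9.57 ± 0.370 without (SD, n = 3 each). This gave a log2 fold change of -0.62 (SE 0.23, 95% interval -1.18 to -0.06, unadjusted p = 0.034, limma adjusted p = 0.06), so CLB1 was not called. The spread between replicates of CLB1 was larger than that of 90.1% of all genes. Samples of equal replicate number deviated together on these arrays, though the labels do not say that they are paired. Within these pairs the differences of CLB1 were -0.33, -0.79 and -0.74. With the pairs as a block CLB1 was called lower (SE 0.12, limma adjusted p = 0.0159, where 27.1% of all genes were called lower). CLB1 was also called without No-myriocin replicate 1 (limma adjusted p = 0.0493). Without No-myriocin replicate 3 the log2 fold change was -0.41 (limma adjusted p = 0.124), and with arrays scaled to the hybridisation controls it was -0.31 (limma adjusted p = 0.306).

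A difference in response between CLB1 and CLB2 was not shown. Within an array the log2 ratio of CLB1 to CLB2 averaged 2.54 ± 0.443 with myriocin and 2.71 ± 0.566 without (SD, n = 3 each). The difference between the groups was -0.18 (SE 0.42), with an exact permutation p of 0.7, adjusted over 3 paralog pairs to 0.7. With 3 arrays a group the smallest p this two-sided test can give is 0.1, so no pair could pass, and a p above the threshold does not show that paralogs responded alike.

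CLB4 encodes a cyclin of late S phase and spindle assembly. Arrays gave CLB4 log2 signals of 8.07, 8.84 and 8.68 in Myriocin replicates 1 to 3, against 9.13, 9.84 and 9.43 in No-myriocin replicates 1 to 3. The groups did not overlap, Myriocin replicate 1 was the lowest array, and No-myriocin replicate 2 the highest. CLB4 averaged 8.53 ± 0.409 with myriocin and 9.46 ± 0.356 without (SD, n = 3 each). Its log2 fold change was -0.94 (SE 0.26, 95% interval -1.56 to -0.31, limma adjusted p = 0.0232), a signal 47.8% lower on the linear scale. It was the largest change among the 9 genes. CLB4 also had a wide spread between replicates, larger than that of 92.7% of all genes, yet its differences within equal replicate numbers were close to each other at -1.06, -0.99 and -0.76. With arrays scaled to the hybridisation controls CLB4 was the only one of the 9 genes called lower (log2 fold change -0.62, limma adjusted p = 0.0449, where 12% of all genes were called lower). The limma adjusted p of CLB4 was 0.0681 without No-myriocin replicate 2, 0.0512 without No-myriocin replicate 3 and 0.0507 without Myriocin replicate 3.

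CLB3, the paralog of CLB4, was not called. It had log2 signals of 6.89, 7.18 and 6.83 in Myriocin replicates 1 to 3, against 6.87, 7.21 and 7.07 in No-myriocin replicates 1 to 3. The groups overlapped, with replicate 2 the highest array in both. The log2 fold change of CLB3 was -0.09 (SE 0.13, 95% interval -0.40 to 0.23, limma adjusted p = 0.609), and it turned to 0.23 with arrays scaled to the hybridisation controls. Within an array the log2 ratio of CLB3 to CLB4 was -1.17, -1.67 and -1.85 in Myriocin replicates 1 to 3, against -2.25, -2.62 and -2.36 in No-myriocin replicates 1 to 3. All 3 ratios were higher with myriocin, by 0.85 on average (SE 0.23), with an exact permutation p of 0.1, the smallest possible here, or 0.3 adjusted over the 3 pairs. The ratios of the groups did not overlap.

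Neither S-phase cyclin gene was called. CLB5, whose product drives the firing of replication origins, had log2 signals of 7.69, 7.54 and 7.65 in Myriocin replicates 1 to 3, against 7.38, 7.74 and 7.69 in No-myriocin replicates 1 to 3. The Myriocin arrays lay inside the No-myriocin range. The log2 fold change of CLB5 was 0.03 (SE 0.11, limma adjusted p = 0.862), and its 95% interval, -0.25 to 0.30, covers linear ratios from 0.842 to 1.23. A 2-fold change in either direction lies outside that interval. The sign of so small a value is not settled: it was -0.15 with quantile normalisation and -0.09 without No-myriocin replicate 1.

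CLB6, the other S-phase cyclin gene, was read near the floor of the array. Its signals in log2 were 2.41, 2.30 and 2.19 in Myriocin replicates 1 to 3, against 2.23, 2.23 and 2.64 in No-myriocin replicates 1 to 3. Every value lay above the negative-control ceiling of 2.07, the lowest by 0.12, and the groups overlapped. The log2 fold change of CLB6 was -0.06 (SE 0.13, limma adjusted p = 0.711), and it turned to 0.25 with arrays scaled to the hybridisation controls. So close to background this probe set could miss a change in CLB6. The log2 ratio of CLB5 to CLB6 averaged 5.32 ± 0.114 with myriocin and 5.23 ± 0.237 without (SD, n = 3 each), a difference of 0.09 (SE 0.15, exact permutation p = 0.6, adjusted p = 0.7).

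CDC20 encodes the activator that starts anaphase through the anaphase-promoting complex. Log2 values of CDC20 were 9.56, 10.38 and 10.05 in Myriocin replicates 1 to 3, against 10.68, 10.62 and 10.36 in No-myriocin replicates 1 to 3. Myriocin replicates 1 and 3 lay under all No-myriocin arrays, while Myriocin replicate 2 lay just above No-myriocin replicate 3. CDC20 averaged 9.99 ± 0.412 with myriocin and 10.55 ± 0.167 without (SD, n = 3 each). Its log2 fold change was -0.56 (SE 0.21, 95% interval -1.08 to -0.04, unadjusted p = 0.0386, limma adjusted p = 0.0669). By replicate number the difference was -1.12 for number 1, and -0.24 and -0.32 for numbers 2 and 3. Without Myriocin replicate 1 the log2 fold change was -0.34 (limma adjusted p = 0.118), and without Myriocin replicate 2 it was -0.75 (limma adjusted p = 0.0221). With arrays scaled to the hybridisation controls CDC20 stood at -0.25 (limma adjusted p = 0.311).

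CDC5 encodes the polo-like kinase of mitosis and mitotic exit. Log2 values of CDC5 were 10.31, 10.47 and 10.42 in Myriocin replicates 1 to 3, against 10.33, 10.39 and 10.60 in No-myriocin replicates 1 to 3. The groups overlapped almost fully. Between groups the log2 fold change was -0.04 (SE 0.10, limma adjusted p = 0.761), and its 95% interval, -0.27 to 0.20, covers linear ratios from 0.828 to 1.15. The value turned to 0.28 with arrays scaled to the hybridisation controls. CDC5 and CLB2 peak together in the cell cycle, and a difference between their changes was not tested.

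SWI5 encodes the transcription factor that enters the nucleus at the end of mitosis. Arrays gave SWI5 log2 signals of 9.97, 10.14 and 10.06 in Myriocin replicates 1 to 3, against 9.82, 9.99 and 9.97 in No-myriocin replicates 1 to 3. Myriocin replicates 2 and 3 lay above all No-myriocin arrays and Myriocin replicate 1 lay among them. Its spread was narrow, with SDs of 0.0835 with myriocin and 0.094 without, and SWI5 was higher in all 3 pairs of equal replicate number, by 0.15, 0.15 and 0.09. A log2 fold change of 0.13 resulted (SE 0.08, 95% interval -0.07 to 0.33, limma adjusted p = 0.234). With arrays scaled to the hybridisation controls it was 0.44 and SWI5 was called higher (limma adjusted p = 0.0269, where 39.9% of all genes were called higher).

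**Figure D2:**
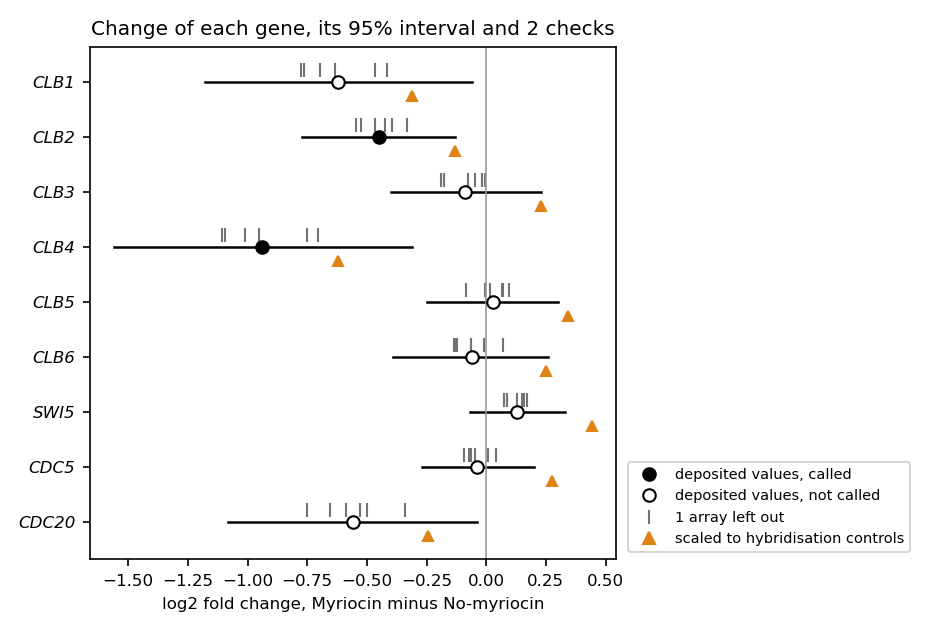
Log2 fold change of each gene, Myriocin minus No-myriocin (circles; filled where limma's adjusted p is under 0.05), with the 95% interval as a line, the values with 1 array left out as ticks above and the value scaled to the hybridisation controls as a triangle below. The intervals of CLB1, CLB2, CLB4 and CDC20 lie under 0, those of the other 5 genes cross it, and with the scaling CLB3, CLB6 and CDC5 move to the right of 0.

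The genes whose signals followed each other most closely were found by the root mean square distance over the 6 arrays after centring each gene on its own mean. Nearest to CLB2 among 5419 other genes were NDC80, of the outer kinetochore, at 0.0263 log2 units, PRM5 at 0.0388 and TAF8, of the TFIID complex, at 0.0591. None of the other 8 genes described here was among the nearest. CDC20 was the closest of them to CLB2, at 0.214, but ranked only 1054 of 5419. CLB1 and CLB4 were farthest, at 0.424 and 0.437 (ranks 3547 and 3627), with larger changes of their own. Nearest to SWI5 were CUS1 at 0.0347, ADK1 at 0.0394 and CKS1, the small subunit of the Cdc28 complex, at 0.041. Nearest to CLB6 were YPR159C-A, TRS120 and BTN2, at 0.0677 to 0.0705. These distances are a description over 6 arrays that share the treatment difference.

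Around the B-type cyclins, their kinase partner and several of its regulators rose. Of 9 genes for Cdc28 and its regulators 4 rose and none fell, where 25.5% of all genes rose. CDC28 itself averaged 12.27 ± 0.0761 with myriocin and 11.63 ± 0.150 without (SD, n = 3 each), so it rose by 0.64 on the log2 scale, used for all changes that follow (SE 0.10, limma adjusted p = 0.00253). SWE1, the kinase gene whose product inhibits Clb-bound Cdc28, rose by 1.46 (SE 0.16, limma adjusted p = 0.000801). MIH1, which encodes the phosphatase that opposes Swe1, rose by 1.30 (SE 0.16), and HSL1, the gene of a kinase that leads Swe1 to destruction, rose by 0.63 (SE 0.12). SIC1, the inhibitor of S-phase cyclin complexes, was not called at 0.15 (limma adjusted p = 0.304), and stood at 0.46 with arrays scaled to the hybridisation controls (limma adjusted p = 0.0338). With that scaling 7 of the 9 rose, where 39.9% of all genes rose.

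Of the transcription factors that act on the mitotic cyclin genes, the forkhead genes rose and the others were not called. FKH1 averaged 7.82 ± 0.209 with myriocin and 6.93 ± 0.166 without, and FKH2 5.02 ± 0.176 with and 4.02 ± 0.0945 without (SD, n = 3 each). They rose by 0.88 (limma adjusted p = 0.00267) and 1.0 (limma adjusted p = 0.000824), though both were too dim to be tested with the dimmest 25% of genes left out. The coactivator gene NDD1 stood at -0.23 in log2 (limma adjusted p = 0.289) and MCM1 at 0.12 (limma adjusted p = 0.405). With arrays scaled to the hybridisation controls NDD1 turned to 0.08 (limma adjusted p = 0.71), and MCM1 was called higher at 0.44 (limma adjusted p = 0.0343). Of 31 other genes of the group that peaks with CLB2, 9 rose (29.0%) and 8 fell (25.8%), with a median log2 fold change of 0.23. These shares are close to the 25.5% of all genes that rose and the 28.8% that fell. With that scaling 14 rose and 4 fell, where 39.9% of all genes rose and 12% fell. YRO2, which encodes a membrane protein, rose by 3.29, and the acid phosphatase gene PHO3, MTC6 and AIM20 fell by 1.97, 1.66 and 1.36.

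**Figure D3:**
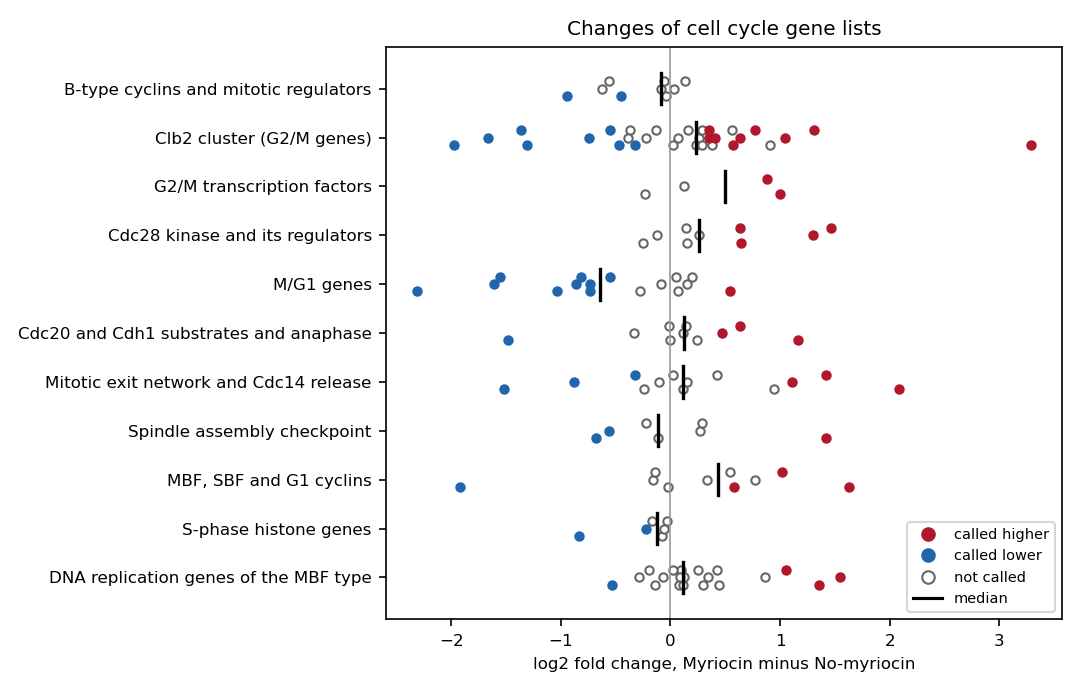
Log2 fold changes, Myriocin minus No-myriocin, of the genes described here (top line) and of 10 cell cycle gene lists, 1 point per gene, filled where limma's adjusted p is under 0.05, with the list's median as a bar. The list of M/G1 genes lies to the left, with a median of -0.64. Farthest to the right are the G2/M transcription factors (median 0.5) and the MBF, SBF and G1 cyclins (0.44). The Cdc28 list (0.26) and the Clb2 cluster (0.23) follow, and the medians of the remaining lists run from -0.13 to 0.13.

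Genes expressed at the end of mitosis and in early G1, the M/G1 genes, include targets of Swi5, whose own transcript was not called. Of 16 genes on this list 9 fell, or 56.2%, where 28.8% of all genes fell, and the median log2 fold change was -0.64. Of the called genes, the glucanase gene DSE4 fell by 2.31 (SE 0.35, limma adjusted p = 0.00246), EGT2 by 1.61 (SE 0.11) and the wall glucanase gene SCW11 by 1.55 (SE 0.14). PCL9, a cyclin gene of the Pho85 kinase, fell by 1.03, a call lost without No-myriocin replicate 2 or 3 or Myriocin replicate 1 or 2 and with arrays scaled to the hybridisation controls (limma adjusted p up to 0.0946 and 0.0581). CTS1, the chitinase gene of cell separation, DSE3 and AMN1, picked out after their values were seen, were not called, with log2 fold changes of -0.09, 0.05 and 0.07 (limma adjusted p = 0.392, 0.751 and 0.54). With arrays scaled to the hybridisation controls CTS1 turned to 0.23 (limma adjusted p = 0.159) and DSE3 stood at 0.36 (limma adjusted p = 0.0839). AMN1 was called higher with that scaling, at 0.38 (limma adjusted p = 0.0301). In all, 6 genes of the list fell and 4 rose with it, where 12% of all genes fell and 39.9% rose. One gene of the list rose in the deposited values, RME1, by 0.54; it was picked out after its value was seen.

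**Figure D4:**
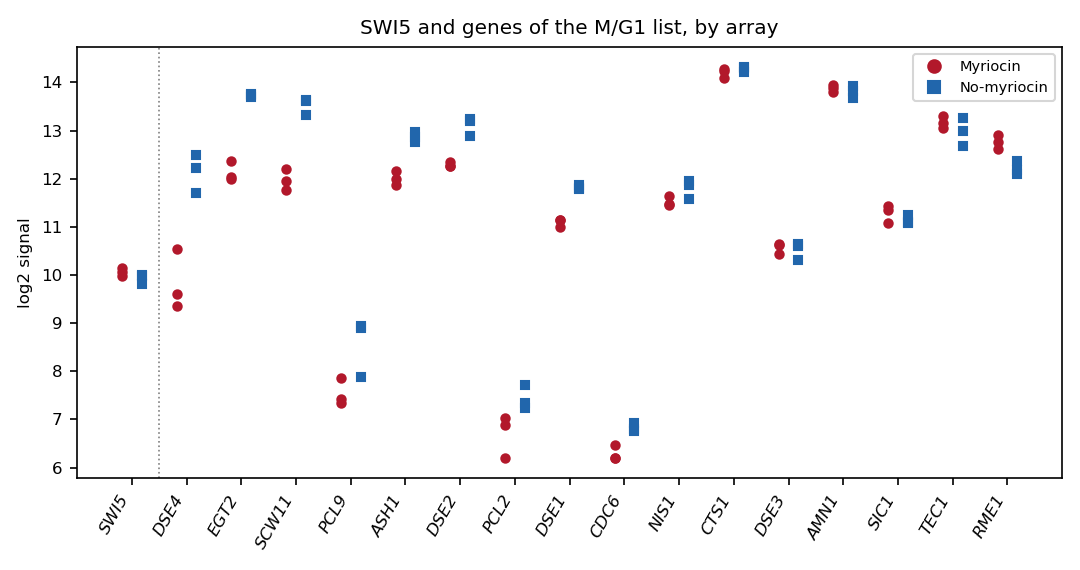
Log2 signals by array (circles, Myriocin; squares, No-myriocin) of SWI5, left of the dotted line, and of the 16 genes on the M/G1 list in order of change. DSE4, EGT2 and SCW11 lie lower in all Myriocin arrays, while the values of SWI5 overlap between groups.

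Lists of genes that act with Cdc20 and Cdc5 had calls in both directions, to be read against 25.5% of all genes higher and 28.8% lower, or 39.9% and 12% with arrays scaled to the hybridisation controls. CDH1, the alternative activator of the anaphase-promoting complex, was not called at 0.24 (limma adjusted p = 0.199), and stood at 0.56 with that scaling (limma adjusted p = 0.0173). Of 10 genes for anaphase and for substrates of Cdc20 and Cdh1 3 rose, HSL1 of the list above among them, and 1 fell. ASE1, of the spindle midzone, rose by 1.16 and the kinesin gene KIP1 fell by 1.48, while AMA1, the meiotic activator, rose by 0.47 with its lowest array only 0.01 above the negative-control ceiling, a call lost with the samples paired (limma adjusted p = 0.0604) and without No-myriocin replicate 1 or Myriocin replicate 1 or 3. Of 13 genes of the mitotic exit network and Cdc14 release there were 3 higher and 3 lower calls, against 7 higher and 2 lower with that scaling. Among these 13, 2 lay no higher than the negative-control ceiling on every array. The kinase genes DBF20, DBF2 and CDC15 rose by 2.08, 1.42 and 1.11, and BUB2, whose product holds the network inactive, fell by 1.52. CDC14, the phosphatase gene that reverses Clb-Cdc28 phosphorylation, fell by 0.88 (SE 0.17, limma adjusted p = 0.00692). Of 7 spindle checkpoint genes BUB1 rose by 1.42, and IPL1 and MAD1 fell by 0.68 and 0.56. With that scaling 3 of these 7 rose and none fell, 3 also rose without Myriocin replicate 3, and the call of IPL1 was also lost with the samples paired (limma adjusted p = 0.0716) and without No-myriocin replicate 1 or 3 or Myriocin replicate 1 or 3 (limma adjusted p up to 0.0872).

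Factors that act on CLB5 and CLB6, and lists of DNA replication and histone genes, were counted against the 25.5% of all genes that rose and the 28.8% that fell. Of 10 genes for G1 cyclins and for the factors MBF and SBF, which act on S-phase cyclin genes, 3 rose (30.0%) and 1 fell (10.0%). Among these 10, 2 lay no higher than the negative-control ceiling on every array. CLN2 averaged 11.81 ± 0.00418 with myriocin and 10.18 ± 0.186 without, and CLN1 11.56 ± 0.190 with and 10.55 ± 0.129 without (SD, n = 3 each). These G1 cyclin genes rose by 1.63 and 1.02 (limma adjusted p = 0.000173 and 0.00107). MBP1, the DNA-binding subunit of MBF, rose by 0.58, a call lost without Myriocin replicate 1 or 2 (limma adjusted p up to 0.0715), and NRM1, its corepressor gene, fell by 1.92. Of 20 genes on a list of DNA replication genes of the MBF type 3 rose, MCM2 by 1.55 and POL12 by 1.35 among them. Whether MBF acts on each gene of that list was not tested. RAD27 fell by 0.53, a call lost with the samples paired (limma adjusted p = 0.0769), with arrays scaled to the hybridisation controls (limma adjusted p = 0.382) and without No-myriocin replicate 2 or 3 or Myriocin replicate 2 or 3. With that scaling 11 of the 20 rose, where 39.9% of all genes rose, and 6 rose without No-myriocin replicate 3. Of 6 measured S-phase histone genes HTA2 and HTB1, which have near-identical copies that their probe sets may also read, fell by 0.83 and 0.22, and the call of HTB1 was lost with the samples paired (limma adjusted p = 0.0505), with that scaling, where its sign turned to 0.09 (limma adjusted p = 0.574), and without any 1 array but Myriocin replicate 1.

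Lists of cell type and meiosis genes were also counted, where 28.8% of all genes fell. Of 4 alpha cell genes 3 fell, MF(ALPHA)2 by 0.51, SAG1 by 0.57 and STE3 by 0.40, the last a call lost without No-myriocin replicate 2 or Myriocin replicate 1 (limma adjusted p up to 0.0574). None of the 4 was called with arrays scaled to the hybridisation controls. None of 6 a cell genes was called, though 2 were called lower without No-myriocin replicate 3. Of 5 meiosis genes IME2 and SPO11 fell, by 1.55 and 0.83.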

How the data were processed

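Each probe set has 1 deposited value per array, a log2 signal that the authors had normalised. The submitters' processing notes name Partek; how probes were summarised and arrays normalised is not given in the sources used here. The log2 scale was settled from the files: for the 9 genes, subtracting the No-myriocin mean from the Myriocin mean gave the logarithm of the ratio in the authors' deposited table within 2.48e-05. Its p-values, per the file headers of the authors' table, were matched by an equal-variance test to within 0.00012 on the log10 scale. Per the file headers and values, the authors' deposited signed fold score was computed as the ratio for increases and as its negative reciprocal for decreases. No sequence or coordinate of the array's build was used here.

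Of 5900 probe sets, 184 were controls, 79 named several genes and were left out, and 192 were unnamed in the tables covering all probe sets. The other 5445 were named from the platform annotation, updated through RefSeq assembly R64, or from the authors' fold change table (24), and the brightest was kept for 24 genes with several. All 5420 genes entered a two-sided comparison of the groups, with no filter, by lmFit and eBayes of limma 3.58.1 under R 4.3.3. Paralog ratios were compared by an exact permutation test. Figures were drawn with matplotlib 3.10.9. On arrays simulated from the measured means and spreads, limma recovered 22 of 50 genes changed by 0.5, 63 of 100 changed by 1 and 47 of 50 changed by 2 log2 units, and called 7 of 5220 unchanged ones. Far fewer genes were changed in the simulation than the 54.4% called in the measured data. The adjusted threshold depends on that share, so these rates do not carry over to the calls reported here.

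The labels give both groups replicate numbers 1 to 3. Deviations from group means, across genes, had correlations of 0.169, 0.233 and 0.175 where numbers were equal and of -0.151 to -0.0552 where they were not, so the numbers were taken to pair the samples, on the data alone. Deviations cancel within a group, so the negative values partly follow from the positive ones and are not separate support. The labels do not say what the number marks. The fit without the block is the one reported. The 9 genes and the lists were chosen with earlier results of these data known. The genes named are the 9, up to 4 called genes of each list with the largest change, 13 cell cycle genes in any case, and the 3 genes nearest to CLB2, SWI5 and CLB6. A few items that this rule names are not reported here. Of the listed genes HHF1 and HHF2 had no probe set of their own. Alternatives were quantile normalisation, equal array medians, scaling to hybridisation controls, omission of the dimmest 25% of genes, averaging of probe sets, an equal-variance test, the block, omission of each array in turn, and limma with an intensity trend and robust variance.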

Additional observations from a re-analysis of the deposited data

How the results depend on the processing

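Of the 9 genes 2 were called lower and 0 higher. Lower calls numbered 1 with arrays scaled to the hybridisation controls, 1 with an intensity trend and robust variance (CLB2 at a limma adjusted p of 0.0623), 0 with the equal-variance test (CLB2 at 0.0713, CLB4 at 0.0743) and 0 to 3 without single arrays. Higher calls numbered 1 with that scaling, SWI5, and 0 in every other alternative. With the dimmest genes left out CLB2, CLB3, CLB4, CLB5 and CLB6 were not tested, and CLB1 and CDC20 were called lower (limma adjusted p = 0.0437 and 0.0494). The share of all genes called lower was 28.8% in the main fit, 12% with the scaling and 27.1% with the block. It is not given for the other alternatives, so their counts cannot be read against all genes. The log2 fold changes of CLB1, CLB2, CLB4, CDC20 and SWI5 kept their direction in every alternative run. The others turned: CLB3 to 0.23, CLB6 to 0.251 and CDC5 to 0.277 with the scaling, CLB5 to -0.154 with quantile normalisation, and without single arrays CLB5 ranged from -0.086 to 0.094, CLB6 from -0.133 to 0.071 and CDC5 from -0.095 to 0.043. The ratio of CLB1 to CLB2 changed by -0.43 to 0.13 without single arrays, that of CLB3 to CLB4 by 0.656 to 0.994, and that of CLB5 to CLB6 by -0.002 to 0.224, or by -0.07 with quantile normalisation. Beyond the scaling's own shift of 0.315, the cause was not tested. Genes of the group that peaks with CLB2 were called lower in 4 and higher in 14 cases with the scaling, against 8 and 9.

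Under a replicate block that pairs equal numbers, CLB1 was called lower (limma adjusted p = 0.0159), AMA1, HTB1, IPL1 and RAD27 lost their calls, and no other call of the 9 genes or of the other genes named by the rule changed. Scaling to those controls ended the calls of CLB2, HTB1, IPL1, MAD1, MF(ALPHA)2, PCL9, RAD27, SAG1 and STE3. Smaller lists moved by over 1.5 times with that scaling too, Cdc28 regulators to 7 higher against 4, G1 cyclins with MBF and SBF to 5 higher against 3, and histones to 1 lower against 2.

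Signal limits genes that lie near the negative controls, CLB6 and AMA1 among them, and 3 arrays a group limit calls of small changes. On every array 2 genes each of the mitotic exit, the G1 cyclin, MBF and SBF, and the a cell lists lay no higher than the negative-control ceiling. So did 1 meiosis gene, and all of these stay in the counts of their lists.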
